A study of Homo sapiens with 8 samples.

Results

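The interleukin-1 (IL-1) family members described here were 10 genes of the 56638 symbols in each count table: the ligands IL1A, IL1B, IL18, IL33, IL36G and IL36B, the receptor antagonist IL1RN, the receptor IL1R1, its accessory chain IL1RAP and the decoy receptor IL1R2. The genes were picked on family membership with their levels and changes in both knockdowns already known, so the values from these contrasts are given for them as a description and without a p-value. Their transcripts were counted by RNA sequencing of SCC25 cells, an established line from a squamous carcinoma of the head and neck, in which the transcription factor ETS1 had been depleted. The 8 libraries formed 4 groups of 2 replicates: cells transfected with a control siRNA (siRNA control), cells transfected with a pool of siRNAs against ETS1 (ETS1 siRNA), cells stably carrying a control hairpin (shCON) and cells stably carrying a hairpin against ETS1 (shETS1). All groups were grown in medium with serum and hydrocortisone, a glucocorticoid, and both hairpin groups had also been selected with puromycin. ETS1 loss was studied in a single cell line, the stable knockdown rested on 1 hairpin construct, and the hairpin replicates are not stated to be separate cultures, so the p-values below measure only the spread between these libraries.

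IL-1 alpha, encoded by IL1A, and IL-1 beta, encoded by IL1B, are agonists that bind the receptor IL1R1, which then recruits IL1RAP and signals through MYD88 and IRAK kinases to NF-kappaB. The antagonist encoded by IL1RN occupies IL1R1 without starting a signal, and IL1R2 binds the same agonists but lacks a signalling domain. IL1B and IL18 are made as precursors that inflammasome caspases cut, whereas IL1A and IL33 are alarmins that keratinocytes store and release on damage, and the IL-36 cytokines act on a separate receptor that also uses IL1RAP. Squamous epithelial cells make several of these ligands themselves.

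Total counts ranged from 15954616 to 20469763 in the siRNA libraries and from 23834078 to 25953213 in the shRNA libraries. ETS1 itself fell in both knockdowns. Its level, in CPM (counts scaled to a common library size), was 288 and 248 in siRNA control against 17.4 and 13.2 in ETS1 siRNA. With the hairpins it was 82.3 and 72.1 in shCON, and 9.76 and 11.1 in shETS1. All 8 squamous keratinocyte markers had reads in every library, and their summed level was 15600 to 20500 CPM in siRNA control against 23600 to 27500 in ETS1 siRNA, with 15600 to 15800 in shCON against 26000 to 26400 in shETS1. KRT5, KRT14 and KRT6A carried most of that sum, and the means of these, KRT17 and DSG3 were higher in both knockdowns. TP63 was at means of 575 against 535 CPM with siRNA and 622 against 471 CPM with the hairpins. SFN was at 1260 against 1670 and 475 against 423 CPM, and CDH1 at 333 against 341 and 191 against 192 CPM. The 10 leukocyte markers summed to 3.49 to 5.09 CPM over all libraries, with MS4A1 and TYROBP at 0 in each and PTPRC at 0 in the siRNA libraries. All 6 fibroblast markers had reads in every library, and they summed to 25.9 to 33.8 CPM in the siRNA libraries, 233 to 262 in shCON against 1950 to 2050 in shETS1. DCN and LUM carried most of that sum, at means of 67.8 and 171 CPM in shCON against 661 and 1320 CPM in shETS1. COL6A3 was at 6.41 against 8.47 CPM, PDGFRA at 1.25 against 2.87, PDGFRB at 0.275 against 0.355 and THY1 at 0.117 against 0.123. The part of these genes in the shRNA results was not tested. Non-polyadenylated structural RNAs made up at most 0.00339% of counts in the siRNA libraries but 12.3% and 9.64% with shETS1 against 5.61% and 6.63% with shCON. The kind of knockdown and the preparation of the libraries therefore cannot be told apart. All 8 shRNA calls of members were also made without the structural and mitochondrial RNAs. That setting bears on the scaling only and not on how the libraries were prepared. In such bulk samples, fewer cells expressing a gene and less RNA per cell also cannot be told apart.

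The agonists IL1A and IL1B were lower in both knockdowns, with a larger fold in the stable knockdown. IL1RN and IL36G were lower, and IL1R1, IL1R2 and IL18 higher, in shETS1 than in shCON. A gene was called at an adjusted p under 0.1 in edgeR's quasi-likelihood test of all genes. In the siRNA comparison 9 of the 10 members passed the filter on low counts, and 2 of these were called, both lower, against a background of 3.41% of all genes tested called (1.13% higher and 2.27% lower). In the shRNA comparison 8 members passed the filter and all 8 were called, 3 higher and 5 lower, where 60.6% of all genes were called (29.7% higher and 30.9% lower). Among the members tested, the groups did not overlap for 3 in the siRNA comparison, against 51.9% of all genes, and for 8 in the shRNA comparison, against 76.6%. Since the members were listed with these contrasts known, nothing is read from these counts. The median log2 fold change of the members tested was -0.26 in the siRNA comparison and -1.13 in the shRNA comparison, beside medians over all genes of 0.00182 and 6.6e-04.

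**Figure D1:**
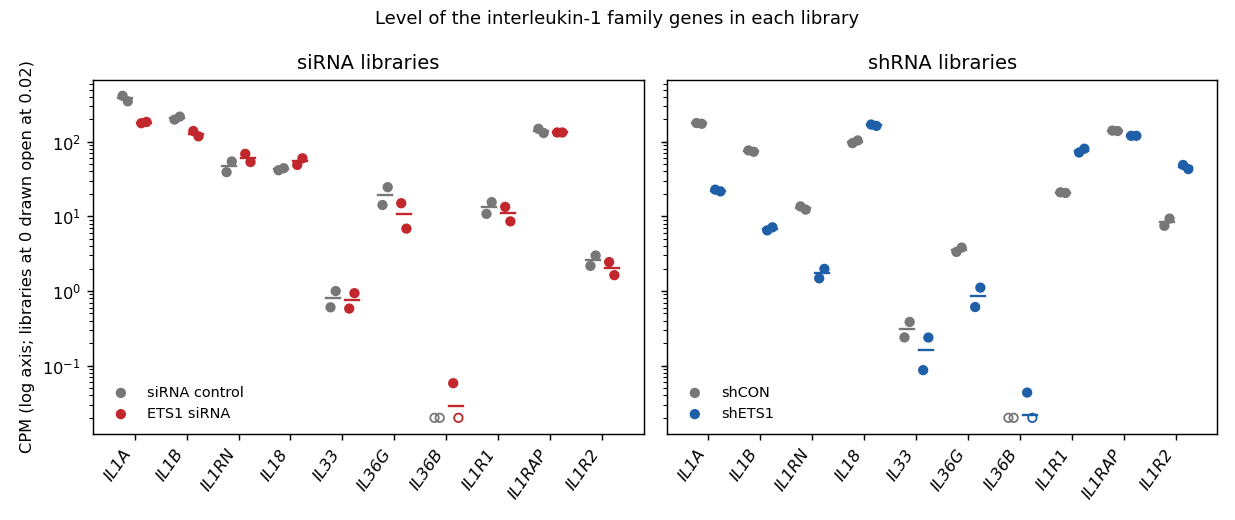
Level of each member in each of the 8 libraries, in CPM on a log scale, with the siRNA libraries in the left panel and the shRNA libraries in the right. Points are libraries, open points are libraries at 0 counts and short lines are means of 2 libraries. The 2 shETS1 libraries lie below both shCON libraries for IL1A, IL1B, IL36G, IL1RN and IL1RAP, and above them for IL18, IL1R1 and IL1R2.

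Most of the family lies in a pair of clusters on chromosome 2. In GRCh37, the ligand cluster holds IL1A (chr2:113531502-113542070, minus strand), IL1B (chr2:113587328-113594393, minus), IL36G (chr2:113730780-113743235, plus), IL36B (chr2:113779666-113810444, minus) and IL1RN (chr2:113856892-113891593, plus). The receptor cluster holds IL1R2 (chr2:102608422-102645006, plus) and IL1R1 (chr2:102681004-102796334, plus). IL1RAP lies at chr3:190231840-190377539 (plus), IL18 at chr11:112013976-112034819 (minus) and IL33 at chr9:6215786-6257983 (plus). Among the members, only IL1R1 shared exon bases with another annotated gene, the antisense RNA IL1R1-AS1, over 11 bases, and the use of strand in the counting is not stated.

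Promoter sequence is shown for the 5 members with the largest fold changes in the shRNA comparison, since ETS1 is a DNA-binding factor whose family recognises sequences around a GGAA core. Sequences are from RefSeq (GRCh38.p14), 5′ to 3′ on the gene's strand, and end at the base before an annotated start. Capitals mark a match, on either strand, to CAGGAA (a form of the ETS core), to TGANTCA (the form bound by AP-1 factors) or to TATAAA. The windows are IL1A at chr2:112784401-112784550 (minus), IL1B at chr2:112836780-112836929 (minus), IL1RN at chr2:113127448-113127597 (plus, 1 of 3 annotated starts), IL36G at chr2:112977856-112978005 (plus) and IL1R2 at chr2:101991810-101991959 (plus). IL1A and IL1R2 also have another annotated start that is not shown.
IL1A: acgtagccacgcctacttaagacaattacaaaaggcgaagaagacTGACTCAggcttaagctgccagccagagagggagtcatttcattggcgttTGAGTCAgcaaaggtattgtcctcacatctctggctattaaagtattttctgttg
IL1B: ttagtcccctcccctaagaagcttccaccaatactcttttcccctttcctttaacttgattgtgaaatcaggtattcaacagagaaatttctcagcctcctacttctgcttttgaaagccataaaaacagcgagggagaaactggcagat
IL1RN: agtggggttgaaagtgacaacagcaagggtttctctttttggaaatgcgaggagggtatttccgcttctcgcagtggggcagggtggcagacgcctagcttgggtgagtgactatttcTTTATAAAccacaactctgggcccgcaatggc
IL36G: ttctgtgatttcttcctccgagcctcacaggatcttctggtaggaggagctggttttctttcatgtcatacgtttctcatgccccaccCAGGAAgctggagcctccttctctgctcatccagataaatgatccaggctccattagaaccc
IL1R2: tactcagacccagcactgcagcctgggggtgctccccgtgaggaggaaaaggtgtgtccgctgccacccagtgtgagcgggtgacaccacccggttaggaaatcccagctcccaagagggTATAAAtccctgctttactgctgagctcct
The IL1A window held 2 copies of TGANTCA, the IL36G window held CAGGAA, the IL1R2 and IL1RN windows held TATAAA close to the start (in IL1RN on both strands, overlapping), and the IL1B window held none of these motifs. The promoter table matched 8 of the 10 members, with 16 windows of 250 bases before to 50 bases after a start. CAGGAA was present in 6 of the 16 windows and in 28.4% of all 35116 windows, TGANTCA in 3 and 7.71%, and TATAAA in 4 and 11.5%. Some windows of IL1A and of IL1RN overlap, so the same site is counted again in the next window. TGANTCA lay in windows of IL1A and IL1RN only, and CAGGAA in those of IL1B, IL36G, IL1RN and IL1R1. No excess is read from these shares. CCGGAA, the ETS core preceded by CC, was in 0 of the 16 and in 17.2% of all windows, and the NF-kappaB consensus was in 0 and 0.558%. A match is a description of these letters only, and the counts do not show which start was used.

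IL1A was the most abundant ligand per length in both controls and fell in both knockdowns. Its level was 412 and 348 CPM in siRNA control against 177 and 184 CPM in ETS1 siRNA, so that both treated libraries lay below both controls. The log2 fold change was -1.07 (SE 0.14), a level 2.11-fold lower. In the stable knockdown its level was 178 and 174 CPM in shCON against 22.8 and 21.6 CPM in shETS1. The replicates of each hairpin group lay close together and far from the other group, with a change of -2.99 on the log2 scale (SE 0.08), or 7.93-fold lower.

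IL1B was also lower in both knockdowns. Its level was 198 and 217 CPM in siRNA control against 139 and 118 CPM in ETS1 siRNA, a change of -0.70 on the log2 scale (SE 0.14) and 1.62-fold lower. These groups did not overlap, but the call was lost when either siRNA control library or ETS1 siRNA replicate 2 was left out, with log2 fold changes of -0.76 without siRNA control replicate 1, -0.63 without siRNA control replicate 2 and -0.59 without ETS1 siRNA replicate 2. In shCON the level was 76.5 and 73.4 CPM and in shETS1 6.49 and 7.14 CPM. With a change of -3.46 on the log2 scale (SE 0.10), or 11.0-fold lower, IL1B had the largest fall of the members in the shRNA comparison. The number of IL1A counts per IL1B count, a ratio that scaling does not touch, was 2.08 and 1.60 in siRNA control against 1.28 and 1.56 in ETS1 siRNA. With the hairpins it was 2.32 and 2.37 in shCON against 3.52 and 3.02 in shETS1.

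The antagonist IL1RN was called in the stable knockdown and not in the transient one. Its level was 39.1 and 54.4 CPM in siRNA control against 68.8 and 53.4 CPM in ETS1 siRNA, with overlapping groups and a change of 0.39 on the log2 scale (SE 0.18). With the hairpins it was 13.6 and 12.3 CPM in shCON against 1.48 and 1.98 CPM in shETS1, from 34 and 50 counts. That fall of 2.89 on the log2 scale (SE 0.17) was 7.43-fold and similar in size to that of IL1A. Relative to the summed IL1A and IL1B counts of the same library, which do not include it, IL1RN amounted to 6.41% and 9.63% in siRNA control against 21.8% and 17.7% in ETS1 siRNA. The corresponding ratios were 5.35% and 4.98% in shCON against 5.05% and 6.91% in shETS1. Antagonist transcript was thus more abundant relative to agonist transcript in both ETS1 siRNA libraries than in either siRNA control library, while the hairpin groups overlapped. As a share of the counts of all 3 genes together, IL1RN was 4.81% and 6.46% in the shETS1 libraries and 5.08% and 4.75% in the shCON libraries. The 95% Wilson intervals of these shares, which cover counting error only, ran from 3.46% to 6.64% and from 4.93% to 8.42% in the shETS1 libraries. They ran from 4.58% to 5.63% and from 4.26% to 5.28% in the shCON libraries.

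**Figure D2:**
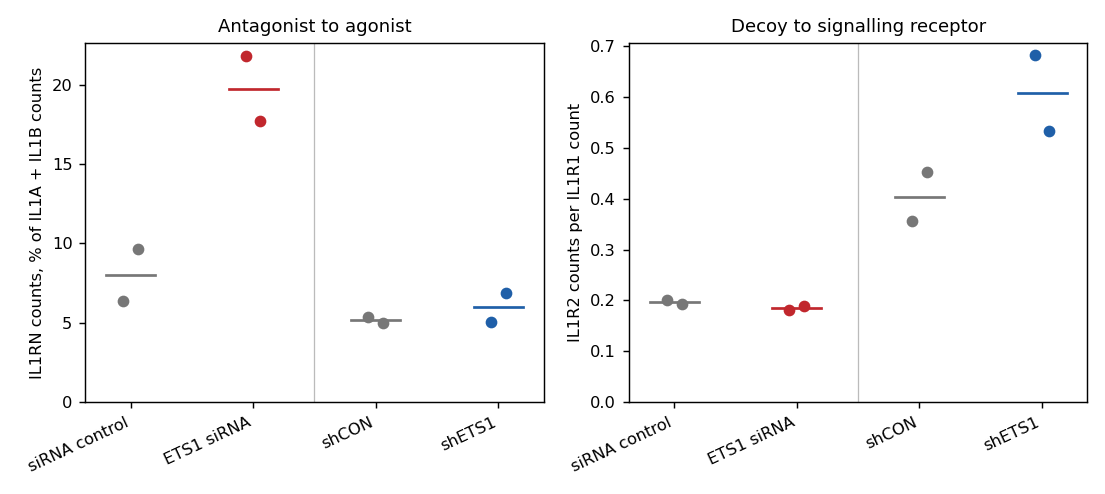
Ratios between members within each library, with 1 point per library in each of the 4 groups and lines at the means. IL1RN relative to IL1A plus IL1B was 17.7% and 21.8% in ETS1 siRNA against 6.41% and 9.63% in its control, and IL1R2 per IL1R1 was 0.533 and 0.681 in shETS1 against 0.355 and 0.453 in shCON.

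IL18, an inflammasome-dependent cytokine, was higher in the stable knockdown. Its level was 95.7 and 104 CPM in shCON against 170 and 163 CPM in shETS1, a rise of 0.74 on the log2 scale (SE 0.07) or 1.67-fold. In the siRNA libraries it was 41.5 and 44.2 CPM in the control and 48.9 and 60.0 CPM in ETS1 siRNA, groups that did not overlap, with a change of 0.35 on the log2 scale (SE 0.14) that was not called, although it was 0.49 and called without ETS1 siRNA replicate 1. Per IL1B count there were 1.25 and 1.41 IL18 counts in shCON against 26.1 and 22.8 in shETS1, and 0.209 and 0.204 in siRNA control against 0.353 and 0.509 in ETS1 siRNA. The balance between these ligands was therefore higher for IL18 in both libraries of each knockdown than in its control.

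IL36G, an epithelial alarmin of the IL-36 group, varied widely between siRNA replicates. It was at 14.2 and 24.6 CPM in siRNA control against 15.0 and 6.85 CPM in ETS1 siRNA, overlapping groups with a change of -0.83 on the log2 scale (SE 0.37) that was -1.49 and called without ETS1 siRNA replicate 1. In shCON it was at 3.34 and 3.82 CPM and in shETS1 at 0.61 and 1.11 CPM, from 14 and 28 counts. That difference was called, at a change of -2.03 on the log2 scale (SE 0.27).

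IL33 and IL36B, an alarmin and a second IL-36 agonist, were near the limit of detection. IL33 had 12 and 16 counts in siRNA control against 10 and 19 in ETS1 siRNA. The hairpin libraries had 6 and 10 in shCON against 2 and 6 in shETS1. It passed the filter in the siRNA comparison but not in the shRNA comparison, and in the former its log2 fold change was -0.04 (SE 0.45). Summed over each hairpin group its level was 0.313 CPM (exact 95% Poisson interval 0.179 to 0.509) in shCON and 0.166 CPM (0.0717 to 0.327) in shETS1, intervals that overlap and cover counting error only. IL36B had 0 counts in all 4 control libraries and 1 count in 1 library of each knockdown, and a sum of 3 counts per group would correspond to 0.0587 to 0.0836 CPM. No difference of IL36B was detectable at this depth.

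Both receptors of the agonists rose in the stable knockdown. IL1R1, the signalling receptor, was at 21.0 and 20.6 CPM in shCON against 71.7 and 80.7 CPM in shETS1, a change of 1.87 on the log2 scale (SE 0.09) or 3.66-fold higher. The decoy IL1R2 was at 7.48 and 9.33 CPM in shCON against 48.8 and 43.0 CPM in shETS1, a change of 2.45 on the log2 scale (SE 0.11) or 5.46-fold higher. Neither gene had overlapping hairpin groups, and the decoy showed the larger fold. In the siRNA libraries IL1R1 was at 10.8 and 15.5 CPM in the control and at 13.4 and 8.57 CPM in ETS1 siRNA, with a change of -0.26 on the log2 scale (SE 0.25). IL1R2 was at 2.17 and 2.99 CPM in siRNA control against 2.44 and 1.63 CPM in ETS1 siRNA, with a change of -0.34 on the log2 scale (SE 0.33). Both pairs of siRNA groups overlapped.

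IL1RAP, the chain shared by the receptors for IL-1, IL-33 and IL-36, had small differences. Its level was 149 and 131 CPM in siRNA control against 133 and 133 CPM in ETS1 siRNA, a change of -0.07 on the log2 scale (SE 0.13). In shCON it was 141 and 139 CPM and in shETS1 120 and 120 CPM, where the log2 fold change of -0.22 (SE 0.07) was called. Counts of IL1R2 per count of IL1R1 were 0.200 and 0.193 in siRNA control against 0.182 and 0.190 in ETS1 siRNA. The ratio was 0.355 and 0.453 in shCON against 0.681 and 0.533 in shETS1. Decoy transcript was thus higher relative to receptor transcript in both shETS1 libraries than in either shCON library.

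**Figure D3:**
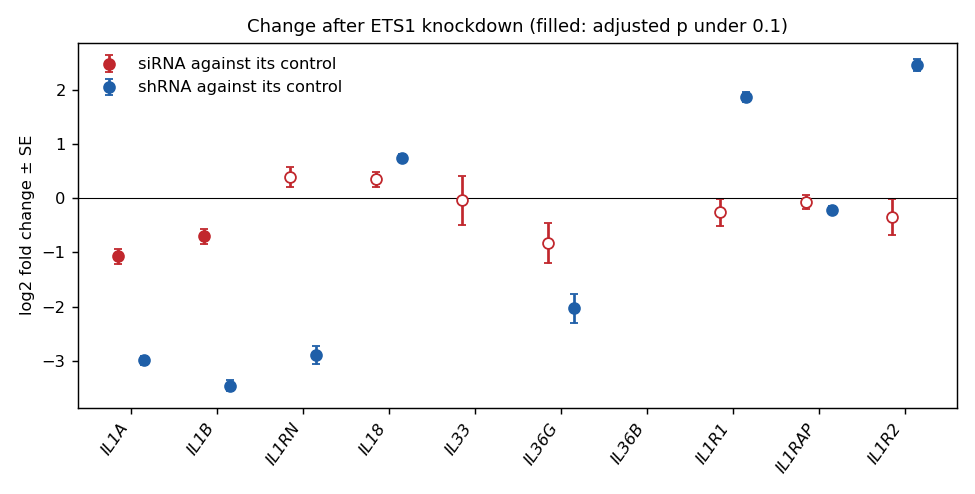
Log2 fold change of each tested member in the siRNA and in the shRNA comparison, with bars of 1 SE and filled points at an adjusted p under 0.1. IL1A and IL1B lie below 0 in both comparisons, and IL1R1 and IL1R2 are at 1.87 and 2.45 in the shRNA comparison.

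Levels of different members were compared per kilobase of merged exon (CPM per kb) and within each group. In siRNA control the order was IL1A at 189 CPM per kb, IL1B at 69.0, IL18 at 16.5, IL36G at 14.1, IL1RN at 12.5, IL1RAP at 12.5, IL1R1 at 1.85, IL1R2 at 0.872 and IL33 at 0.246. From IL18 to IL1RAP each gene overlapped with the next in this order. Both IL18 libraries, at 15.9 and 17 CPM per kb, still lay above both of IL1RN (10.5 and 14.6) and of IL1RAP (13.3 and 11.7). In ETS1 siRNA, IL1A at 89.6, IL1B at 42.6 and IL18 at 20.9 CPM per kb still led, and IL1RN at 16.4 stood above IL1RAP at 11.9 and IL36G at 7.96. In shCON, IL1A at 87.2 CPM per kb was followed by IL18 at 38.3 and IL1B at 24.9, while IL1R1 at 2.92 overlapped with IL1R2 at 2.84, and IL1R2 with IL36G at 2.61. In shETS1 the order was different, with IL18 first at 63.8 CPM per kb, IL1R2 next at 15.5, and IL1A at 11.0 overlapping with IL1RAP at 10.7 and IL1R1 at 10.7. IL1B at 2.26 CPM per kb stood below every receptor there, above IL36G at 0.626 and IL1RN at 0.464, which overlapped.

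The difference between the knockdowns was obtained by subtracting the siRNA effect from the shRNA effect in a joint fit of the 8 libraries. Of 9 members tested, 5 were called, 2 higher and 3 lower, where 34.8% of all genes were called (15.1% higher and 19.7% lower). Their median difference was -0.88, beside -0.02 over all genes. IL1A differed by -1.93 (SE 0.15), IL1B by -2.78 (SE 0.16) and IL1RN by -3.30 (SE 0.29) on the log2 scale, the shRNA effect being the lower one. IL1R1 differed by 2.11 (SE 0.28) and IL1R2 by 2.77 (SE 0.31), the shRNA effect being the higher one. The differences of IL18 at 0.37 (SE 0.16), IL36G at -1.22 (SE 0.61), IL33 at -0.88 (SE 0.80) and IL1RAP at -0.17 (SE 0.13) were not called. The members were listed with both changes known, so nothing is read from these calls either.

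The genes around both clusters were also measured, in a window of 300 kb chosen after the values were seen. In the ligand cluster 8 other genes were tested in the shRNA comparison, 6 of them were called, and all 6 were lower. They included CKAP2L, a mitotic spindle protein gene next to IL1A, at a change of -1.67 on the log2 scale (SE 0.09, adjusted p = 1.8e-10 by edgeR), and SLC20A1, a phosphate transporter gene, at -1.20 (SE 0.08, adjusted p = 6.1e-10). IL37, an anti-inflammatory ligand, was at -2.18 (SE 0.63), from 12 and 13 counts in shCON against 2 and 3 in shETS1. IL37 is among the 6 called, but it passed the filter on low counts only through shCON, so its call is not read. POLR1B, an RNA polymerase I subunit gene, was at -0.09 (SE 0.07, adjusted p = 0.34) in this comparison. In the siRNA comparison 7 other genes of the ligand window were tested and POLR1B alone was called, at -0.68 (SE 0.15, adjusted p = 0.079). In the receptor window 4 other genes were tested in the shRNA comparison and all 4 were called, 1 higher and 3 lower, with MAP4K4, a kinase gene upstream of IL1R2, at -1.91 (SE 0.08, adjusted p = 7.0e-12), IL1RL1 at -2.38 (SE 0.27, adjusted p = 1.1e-06), IL18R1 at -0.62 (SE 0.16, adjusted p = 0.0037) and IL1RL2 at 0.43 (SE 0.14, adjusted p = 0.019). Over all genes, 60.6% were called in this comparison.

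**Figure D4:**
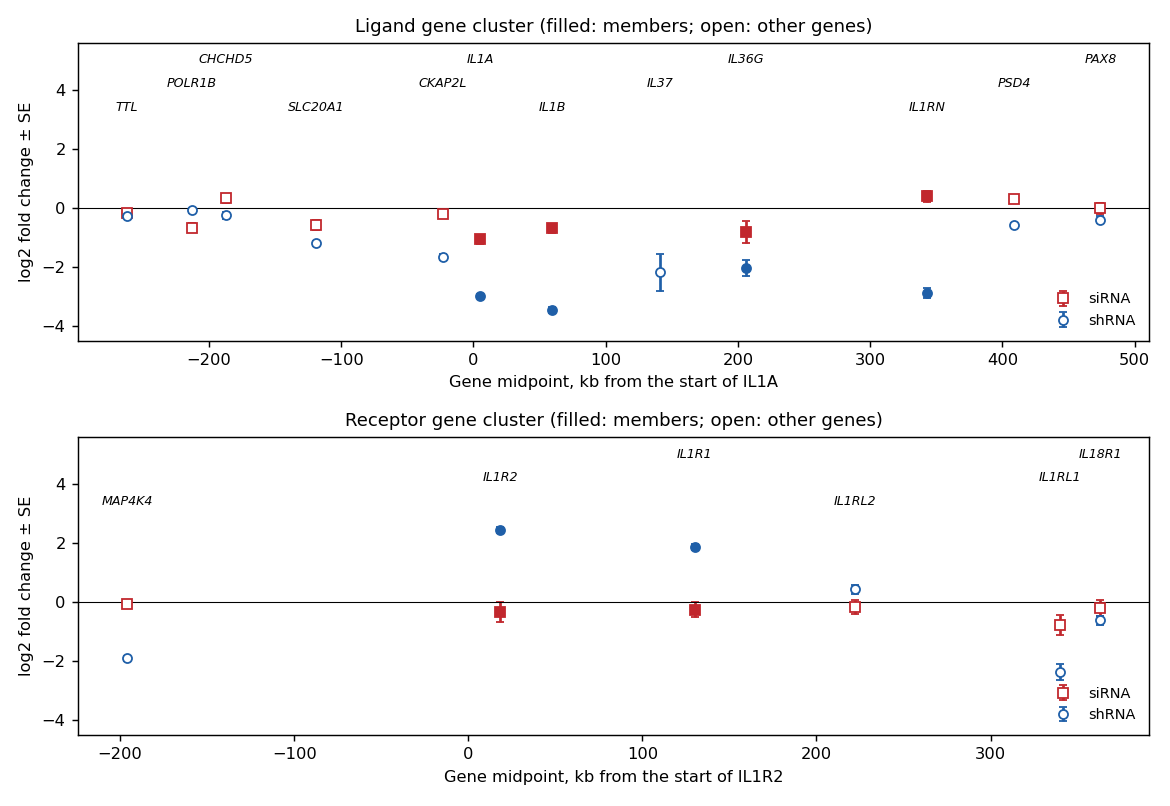
Log2 fold change of the tested genes along the ligand and the receptor cluster, against distance in kb from the start of the cluster, for the siRNA (squares) and the shRNA comparison (circles), with bars of 1 SE and members filled. In the shRNA comparison the members of the ligand cluster lie between -2.03 and -3.46 with every tested neighbour also lower, and IL1R2 and IL1R1 lie at 2.45 and 1.87 in the receptor cluster.

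Genes with the most similar pattern were sought for 6 members with at least 5 CPM on average in both tables, by the root mean square difference of log2(CPM + 0.5), centred within each table, over the 8 libraries and among 10049 genes. The nearest to IL1A were ALDH1A3 at 0.123, SEMA3A at 0.185 and FGF2 at 0.191, and IL1B followed at rank 9 with 0.233. IL1B was nearest to IL7R at 0.175, ADD2 at 0.179 and LPXN at 0.183, and IL1A was again at rank 9. For IL1RN they were BST2 at 0.141, PLK1 at 0.163 and ZBED2 at 0.172, with IL1B as its nearest member only at rank 205. IL1R1 was nearest to MYLK at 0.169, TNFAIP2 at 0.170 and SOD2 at 0.176, IL18 to CD9 at 0.0278, FDX1 at 0.0396 and ERGIC3 at 0.0410, and IL1RAP to SQLE at 0.0231, MBOAT2 at 0.0234 and NUP50 at 0.0271. These points share libraries and depth, and the measure is a description.

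The other members of the family were called in the shRNA comparison in both directions. This list and those that follow were chosen with earlier results of these data known. Their counts and adjusted p-values are a description, and nothing is read from them. Of 12 listed ligands, receptors and binding proteins, 6 were tested in each comparison. None was called in the siRNA comparison by edgeR or by DESeq2, and 0 had an unadjusted p under 0.05, with a median log2 fold change of -0.19 that was -0.76 without the filter on low counts and -0.77 by DESeq2. Over all genes tested, 3.41% were called in the siRNA comparison and 60.6% in the shRNA comparison. All 6 were called in the shRNA comparison, 2 higher and 4 lower, with a median of -0.48 (-0.76 without shETS1 replicate 2), although DESeq2 called 2. IL37 is among the 4 lower, but it passed the filter on low counts only through shCON, so its call is not read. IL1RL1, the IL-33 receptor, was at 3.10 and 3.20 CPM in shCON against 0.566 and 0.634 CPM in shETS1, a change of -2.38 on the log2 scale (SE 0.27, adjusted p = 1.1e-06 by edgeR). IL18R1, the IL-18 receptor chain, was at -0.62 (SE 0.16, adjusted p = 0.0037), and its exons share bases with those of IL1RL1. IL18BP, which neutralises IL-18, was at -0.35 (SE 0.15, adjusted p = 0.057), and 1031 of its exon bases overlap NUMA1 on the opposite strand. IL1RL2, the IL-36 receptor, was at 0.43 (SE 0.14, adjusted p = 0.019) and SIGIRR, an inhibitory receptor, at 0.63 (SE 0.27, adjusted p = 0.052). The call of IL18BP was lost without shCON replicate 1 (-0.25) or shETS1 replicate 1 (-0.29), that of IL1RL2 without shCON replicate 2 (0.34), and that of SIGIRR without shCON replicate 2 (0.52), shETS1 replicate 1 (0.67) or shETS1 replicate 2 (0.59).

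Among 19 genes of receptor signalling, changes of both signs were called in the shRNA comparison. In the siRNA comparison 2 of 18 tested were called, both lower, where 3.41% of all genes were called: CHUK, the kinase IKK-alpha, at -0.54 (SE 0.12, adjusted p = 0.089 by edgeR) and IRAK3, a negative regulator, at -0.79 (SE 0.18, adjusted p = 0.093). Both calls were lost without siRNA control replicate 1 (-0.44 for CHUK and -0.82 for IRAK3), siRNA control replicate 2 (-0.63 and -0.75) or ETS1 siRNA replicate 2 (-0.55 and -0.64). Of 19 tested in the shRNA comparison, 13 were called, 5 higher and 8 lower, a share near the 60.6% of all genes called. MYD88, the adaptor of the receptors, was at 10.3 and 8.52 CPM in shCON against 2.44 and 3.25 CPM in shETS1, a change of -1.72 on the log2 scale (SE 0.17, adjusted p = 2.6e-07). The kinase IRAK1 was at -0.83 (SE 0.07, adjusted p = 3.6e-08), TAB3, an adaptor of TAK1 whose exons overlap TAB3-AS1 and TAB3-AS2, at -0.90 (SE 0.12, adjusted p = 4.8e-06) and the NF-kappaB subunit NFKB1 at -0.42 (SE 0.07, adjusted p = 8.5e-05), while MAP3K7, which encodes TAK1, was at 0.49 (SE 0.07, adjusted p = 2.2e-05). The medians of the tested genes were -0.07 (-0.17 without ETS1 siRNA replicate 1) and -0.08 (-0.20 with scaling by library size alone and -0.05 without shCON replicate 2), and the shRNA count was 8 without shCON replicate 1.

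Of 17 listed genes that process and release the ligands, 15 were tested in each comparison. In the siRNA comparison 2 were called, both lower, where 3.41% of all genes were called. NLRP3, the sensor of an inflammasome, was at 9.22 and 9.11 CPM in siRNA control against 2.79 and 1.72 CPM in ETS1 siRNA, a change of -2.03 on the log2 scale (SE 0.25, adjusted p = 0.014 by edgeR), and stood at 0.358 CPM or less in each shRNA library. CAPN2, a subunit of the calpain that cuts the IL1A precursor, was at -0.61 (SE 0.12, adjusted p = 0.053), a call lost without siRNA control replicate 1 (-0.58) or 2 (-0.65). Of 15 tested in the shRNA comparison, 8 were called, 1 higher and 7 lower, where 60.6% of all genes were called (29.7% higher and 30.9% lower). The inflammasome adaptor PYCARD was at -1.15 (SE 0.15, adjusted p = 5.4e-06), the pore-forming DFNA5 (GSDME) at -1.15 (SE 0.08, adjusted p = 1.5e-09), the protease CTSS at -0.75 (SE 0.14, adjusted p = 1.4e-04) and CASP1, which cuts the IL1B and IL18 precursors, at -0.41 (SE 0.08, adjusted p = 2.6e-04). CASP4, a caspase that senses lipopolysaccharide, was at 0.43 (SE 0.08, adjusted p = 1.8e-04 by edgeR). In GENCODE v44, NLRP3 shared 3139 exon bases with a non-coding RNA on the same strand. PYCARD shared 991 with PYCARD-AS1 on the opposite strand. Neither RNA was counted as a gene of its own, and smaller overlaps with such RNAs are not all listed here. The median was 0.12 in the siRNA comparison and -0.02 without siRNA control replicate 1. It was -0.12 in the shRNA comparison, -0.24 with scaling by library size alone or with all 8 libraries in one fit, and from -0.20 to -0.16 with 1 library left out at a time.

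Genes known to respond to IL-1 were lower where called in the siRNA comparison and moved both ways in the shRNA comparison. This list too was chosen with earlier results of these data known, so nothing is read from its counts and adjusted p-values. Of 24 listed, 21 were tested in each, and 6 were called in the siRNA comparison, all lower, where 3.41% of all genes were called. Their median was -0.71, which became -0.38 without siRNA control replicate 2 and -0.41 without ETS1 siRNA replicate 2. PTGS2, which encodes cyclooxygenase-2, was at 543 and 416 CPM in siRNA control against 175 and 191 CPM in ETS1 siRNA, a change of -1.39 on the log2 scale (SE 0.16, adjusted p = 0.011 by edgeR). The cytokine IL6, whose exons overlap STEAP1B, was at -1.17 (SE 0.16, adjusted p = 0.021), the neutrophil chemokine IL8 (CXCL8) at -1.21 (SE 0.22, adjusted p = 0.042), the chemokine CCL20 at -0.88 (SE 0.15, adjusted p = 0.038) and BIRC3, an inhibitor of apoptosis, at -0.95 (SE 0.19, adjusted p = 0.055). Without siRNA control replicate 1 the calls of IL6 (-1.01), CCL20 (-0.90) and BIRC3 (-1.03) were lost and the count was 3, and it was 10 without ETS1 siRNA replicate 1.

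In the shRNA comparison 20 of the 21 IL-1 response genes were called, 10 higher and 10 lower, where 60.6% of all genes were called. Their median was 0.08, which became -0.04 under scaling by library size alone, -0.08 with all 8 libraries in one fit, 0.21 with at least 10 counts in every library, 0.02 without shETS1 replicate 1 and 0.14 without shETS1 replicate 2. PTGS2 was again lower, with 2053 and 1803 counts in shCON against 322 and 343 counts in shETS1, a change of -2.45 on the log2 scale (SE 0.10, adjusted p = 1.7e-12 by edgeR), and LCN2, an iron-siderophore binding protein, was at -1.91 (SE 0.15, adjusted p = 1.4e-08). BIRC3 was at 102 and 113 CPM in shCON against 418 and 400 CPM in shETS1, a change of 1.93 on the log2 scale (SE 0.08, adjusted p = 2.7e-12). IL8 was at 49.0 and 47.6 CPM in shCON against 95.7 and 91.8 CPM in shETS1, a change of 0.96 on the log2 scale (SE 0.08, adjusted p = 1.1e-08). SOD2, the mitochondrial superoxide dismutase, was at 1.38 (SE 0.08, adjusted p = 2.0e-10), and its exons overlap those of ACAT2 and WTAP. CCL20 was at 0.69 (SE 0.13, adjusted p = 2.5e-04 by edgeR). IL8, BIRC3 and CCL20 were thus called lower in the siRNA comparison and higher in the shRNA comparison. CSF2 is among the 10 lower, with 25 and 20 counts in shCON against 7 and 8 in shETS1. It passed the filter on low counts only through shCON, so its call there is not read.

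**Figure D5:**
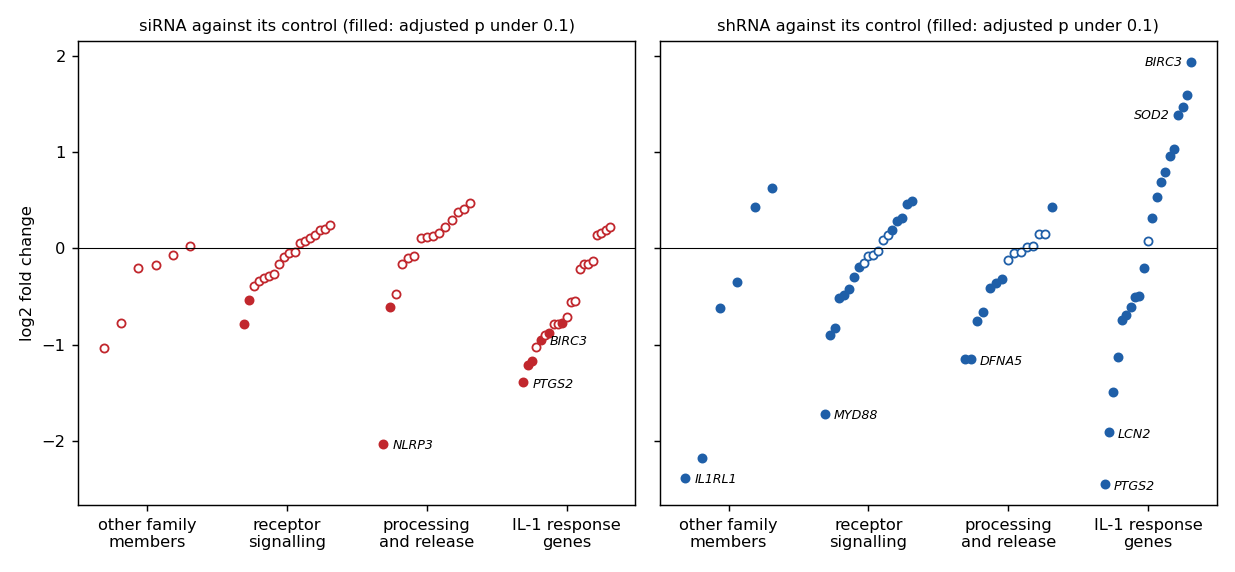
Log2 fold change of every tested gene of the 4 pathway lists in the siRNA and in the shRNA comparison, sorted within each list, with filled points at an adjusted p under 0.1. In the siRNA panel all filled points lie below 0, and in the shRNA panel the IL-1 response genes run from PTGS2 at -2.45 to BIRC3 at 1.93.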

How the data were processed

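RNA was sequenced from 8 SCC25 libraries. The deposited values are raw counts per gene symbol, which the authors made, per the labels and the submitters' processing notes, with TopHat2 2.1.1, Bowtie2 2.2.6 and featureCounts 1.5.0 on GRCh37, in 2 tables, 1 for each knockdown. The use of strand and of reads with several matches is not given in the sources used here, so reads could be split among overlapping or closely similar genes. The depth, 15954616 to 25953213 counts per library, limited only the rarest members.

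For each knockdown, a fit of its 4 libraries was made in edgeR 4.0.16 (R 4.3.3) after TMM scaling and filterByExpr. Its quasi-likelihood F-test was two-sided, with Benjamini-Hochberg adjustment over all genes tested and a threshold of 0.1. The common dispersion was 0.0192 for the siRNA and 0.00402 for the shRNA libraries. CPM is scaled within each table, so levels are not compared between tables, and SEs were derived from the F statistic. Replicates differed by more than sampling noise (chi-square per degree of freedom 6.23 to 23.2). The fit was tested on simulated data.

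The members and lists were chosen with earlier results of these data known. The genes named were all members, ETS1, up to 5 called genes of each list and comparison by smallest adjusted p among those averaging 1 CPM or more, and the 3 nearest patterns per member. Genes of the cluster windows and IL37 were named after their values were seen. Alternatives were other scalings and filters, DESeq2 1.42.0, a replicate block, all 8 libraries in one fit, a threshold of 0.05 and leaving out each library. Of the 56638 symbols, 33514 matched a current and 1898 an older symbol of GENCODE v44 lifted to GRCh37, 429 matched several genes and 20797 none.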

Additional observations from a re-analysis of the deposited data

Results flagged for a closer look

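The difference between the knockdowns on the log2 scale, with the siRNA effect subtracted from the shRNA effect, passed an adjusted p of 0.1 in edgeR's quasi-likelihood test over all 8 libraries for 5 of 9 members tested, 1 of 7 other family members, 9 of 19 receptor signalling genes, 9 of 16 processing and release genes and 12 of 22 IL-1 response genes. Members and lists were chosen with earlier results of these data known, so these counts are a description and nothing is read from them. Values are given for the members and for those pathway genes that the rule for named genes had picked in the siRNA or the shRNA comparison. Among the members it was -1.93 for IL1A, -2.78 for IL1B, -3.30 for IL1RN, 2.11 for IL1R1 and 2.77 for IL1R2.

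Among the named IL-1 response genes the shRNA effect was higher by 2.86 for BIRC3, 2.15 for IL8, 1.54 for CCL20 and 1.52 for SOD2. It was lower there for PTGS2, at -1.08, and for LCN2, at -2.12. Among the named signalling genes the difference was 0.96 for IRAK3, 0.61 for CHUK and 0.41 for MAP3K7, against -1.88 for MYD88, -0.80 for IRAK1 and -0.59 for TAB3. Among those of processing and release it was 0.74 for CAPN2 and 0.51 for CASP4, against -1.40 for PYCARD, -1.34 for DFNA5, -0.70 for CTSS and -0.56 for CASP1. IL1RL1, the IL-33 receptor, differed by -1.63. The siRNA and the shRNA libraries also differed in structural RNAs, and 34.8% of all genes tested passed in this comparison.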

How the results depend on the processing

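All 8 shRNA calls of members kept their direction and side of the threshold in 13 of 13 alternatives, and the 5 calls of the difference between knockdowns in 16 of 16. In the siRNA comparison IL1A was called in 13 of 13 alternatives, at -1.19 to -0.95, and IL1B in 8 of 13, IL18 in 2 and IL36G in 2. The members were listed with these contrasts known, so how often they were called is a description of the processing only. Scaling by library size alone moved the shRNA median of all genes to -0.125. Leaving out single libraries changed the sign of 3 uncalled siRNA fold changes, which ranged from -0.16 to 0.03 for IL1RAP (positive without siRNA control replicate 1), from -0.44 to 0.34 for IL33 (positive without siRNA control replicate 2 or ETS1 siRNA replicate 1) and from -0.61 to 0.03 for IL1R1 (positive without siRNA control replicate 2 or ETS1 siRNA replicate 2). The cause was not tested.

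In the siRNA comparison the called genes numbered 502, against 1466 with no filter, 777 with DESeq2, 2166 with all 8 libraries in one fit and 190 at an adjusted p under 0.05. Called members numbered 1 at 0.05. Called genes of the other family members were 1 with no filter. For receptor signalling they were 5 with all 8 libraries and 0 at 0.05, where 4 had an unadjusted p under 0.05 in edgeR. For processing and release they were 4 with no filter, 5 with all 8 libraries and 1 at 0.05, and for the IL-1 response 10 with no filter. In the shRNA comparison DESeq2 called 2 other family members and 7 receptor signalling genes.

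The replicate number as a block gave 97 called genes, 1 member (IL1A), 0 receptor signalling, 1 processing and 2 IL-1 response genes in the siRNA comparison. Same-numbered libraries correlated at -0.543 (siRNA) and -0.197 (shRNA), so a shared number did not mark libraries that varied together. A crossed pairing, chosen after seeing the data, gave 3238 genes, 5 members, 1 other family member, 5 signalling, 6 processing and 13 response genes in the siRNA comparison.

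Leaving out each library in turn, with a lone sample assumed to vary like the other group, gave 72 (without siRNA control replicate 1) to 1478 (without ETS1 siRNA replicate 1) called genes, 1 to 4 members, 0 other family members, 0 to 2 signalling, 1 to 4 processing and 3 to 10 response genes in the siRNA comparison. The shRNA ranges were 8282 to 9675 genes, 8 to 8 members, 4 to 5 other family members, 8 to 12 signalling, 8 to 9 processing and 17 to 19 response genes. The difference between knockdowns gave 4131 to 6302 genes and 5 to 7 members.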
